A study of Mus musculus with 21 samples.

Results

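The guanylate-binding proteins (Gbp) and the immunity-related GTPases (Irg) are families of GTPases that interferons induce in mouse cells. The genes described here are Gbp2, Gbp2b, Gbp3, Gbp7 and Gbp9 of the first family and Irgm1, Irgm2, Igtp, Ifi47 and Iigp1 of the second, taken by symbol from the tables of levels. All 10 had a row among the 31553 features measured in Neuro2a cells, and 9 had one among the 39008 features measured in mouse cortex, where Gbp2b was not analysed. They were selected on their Neuro2a values, with earlier results known, namely the difference between the groups and between the library sets, so those values are given below as a description and no test of them is reported.

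PolyA RNA was sequenced from 21 mouse samples. Neuro2a, a mouse neuroblastoma line, received a guide RNA plasmid and a plasmid for sadCas9-VP64, at 750 ng each, for 6 libraries (CRISPRa), and sadCas9-VP64 without a guide for 6 others (VP64 only). The labels give no plasmid amount for VP64 only. Here a Cas9 that cannot cut carries the activator VP64 to the promoter that the guide matches, in this study that of Scn2a. The library names divide these 12 into library set 7 (replicates 1 to 3 of each group) and library set 8 (replicates 4 to 6), without saying what a set stands for. The mouse groups, all on a C57BL/6J background, were Scn2a+/- mice given 500 nL of rAAV with the guide RNA and sadCas9-VP64 in the medial prefrontal cortex 4 weeks earlier (Het CRISPRa, n = 3), Scn2a+/- mice (Het, n = 3) and wild-type mice (WT, n = 3), and the labels give neither the ages nor whether Het and WT mice were injected. RNA of the mice came from NeuN-positive nuclei sorted out of 200 mg of cortex. The labels do not say which promoters drove the constructs or whether the Neuro2a replicates were separate cultures, so the p-values below speak of variation among libraries, part of which may be technical. No Neuro2a sample with a guide against another target was analysed here, and the guide sequence, the second plasmid and its marker transcript cannot be told apart in the Neuro2a comparison.

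Gbp proteins are large GTPases of the dynamin superfamily that assemble on the vacuoles and membranes of intracellular pathogens and on released bacterial lipopolysaccharide. Among the Irg proteins, Irgm1, Irgm2 and Igtp (also called Irgm3) sit on the cell's own membranes and hold the effector Irg proteins, such as Iigp1 (Irga6) and Ifi47 (Irgd), in an inactive state until a vacuole without them is met. Interferons induce both families through promoter elements called gamma-activated sites and interferon-stimulated response elements, and factors of the IRF family bind the second kind.

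Promoter sequences are shown for 6 members to let the shared interferon motifs be seen. The windows are the 250 bases before the annotated start in RefSeq (build GRCm38.p6), read 5′ to 3′ on the gene's strand, with matches in capitals. Searched on both strands were the core of an interferon-stimulated response element, GAAA followed after any 2 bases by GAAA again, and TTCNNNGAA, the core of a gamma-activated site, which reads the same on both strands. Igtp and Irgm2 are neighbours on chromosome 11 and hold both motifs:
Igtp, chr11:58199306-58199555, plus strand: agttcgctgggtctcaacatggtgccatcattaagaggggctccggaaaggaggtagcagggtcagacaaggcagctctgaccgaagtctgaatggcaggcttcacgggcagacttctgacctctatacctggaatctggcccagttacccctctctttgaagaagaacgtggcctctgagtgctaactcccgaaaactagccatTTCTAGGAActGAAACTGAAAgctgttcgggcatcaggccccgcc
Irgm2, chr11:58214727-58214976, plus strand: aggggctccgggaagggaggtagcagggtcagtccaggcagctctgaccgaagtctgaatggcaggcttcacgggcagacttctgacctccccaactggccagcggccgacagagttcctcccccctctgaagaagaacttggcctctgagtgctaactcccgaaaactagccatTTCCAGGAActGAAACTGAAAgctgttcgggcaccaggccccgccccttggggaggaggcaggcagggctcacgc
Gbp7 on chromosome 3 also holds both, Gbp2 holds the response element alone, Irgm1 holds 2 overlapping response elements close to its start, and Ifi47 holds neither:
Gbp7, chr3:142530086-142530335, plus strand: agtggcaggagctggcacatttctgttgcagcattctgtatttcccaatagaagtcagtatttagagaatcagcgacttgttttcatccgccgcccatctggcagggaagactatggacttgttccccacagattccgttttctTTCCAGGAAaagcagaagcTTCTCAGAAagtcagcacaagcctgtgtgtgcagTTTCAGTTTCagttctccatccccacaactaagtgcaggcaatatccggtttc
Gbp2, chr3:142620413-142620662, plus strand: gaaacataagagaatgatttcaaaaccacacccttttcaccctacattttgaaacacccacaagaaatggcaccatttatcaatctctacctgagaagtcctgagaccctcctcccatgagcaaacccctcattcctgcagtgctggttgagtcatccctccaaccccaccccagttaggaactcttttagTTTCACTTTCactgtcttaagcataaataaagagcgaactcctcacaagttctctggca
Irgm1, chr11:48871421-48871670, minus strand: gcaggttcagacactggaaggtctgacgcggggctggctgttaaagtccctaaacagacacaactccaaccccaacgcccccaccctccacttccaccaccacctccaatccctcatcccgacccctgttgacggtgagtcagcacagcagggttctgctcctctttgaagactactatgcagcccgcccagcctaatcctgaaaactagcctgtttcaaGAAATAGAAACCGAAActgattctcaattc
Ifi47, chr11:49076337-49076586, plus strand: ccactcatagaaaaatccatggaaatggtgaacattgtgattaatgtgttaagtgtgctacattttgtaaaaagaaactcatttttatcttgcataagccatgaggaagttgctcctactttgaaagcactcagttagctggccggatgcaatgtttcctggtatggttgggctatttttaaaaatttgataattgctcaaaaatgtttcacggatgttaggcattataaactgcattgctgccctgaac

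Of the 8 members with a window (Gbp9 and Iigp1 had none), 7 held the response element core, which 2.98% of 32851 promoter windows held. Members were counted by gene, with a match in any of its windows, while the percentages are of single windows. TTCNNNGAA was in 3 of the 8 and in 7.02% of all windows, and both motifs were in 3 of the 8 and in 0.332% of all windows. The first bases of the 2 motifs lay 11 bases apart in Igtp and in Irgm2, and also in the Irg genes Tgtp1 and Tgtp2, which are no members. Igtp and Irgm2 shared an unbroken run of 55 identical bases, and 60.9% of 220 bases were identical in a gapless alignment of the windows. In Gbp7 the nearer gamma-activated site began 34 bases before the response element. Gbp3 has 2 annotated starts, one window with 2 overlapping matches of the response element core and the other with none. A match describes the letters of a window and shows no binding.

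**Figure D1:**
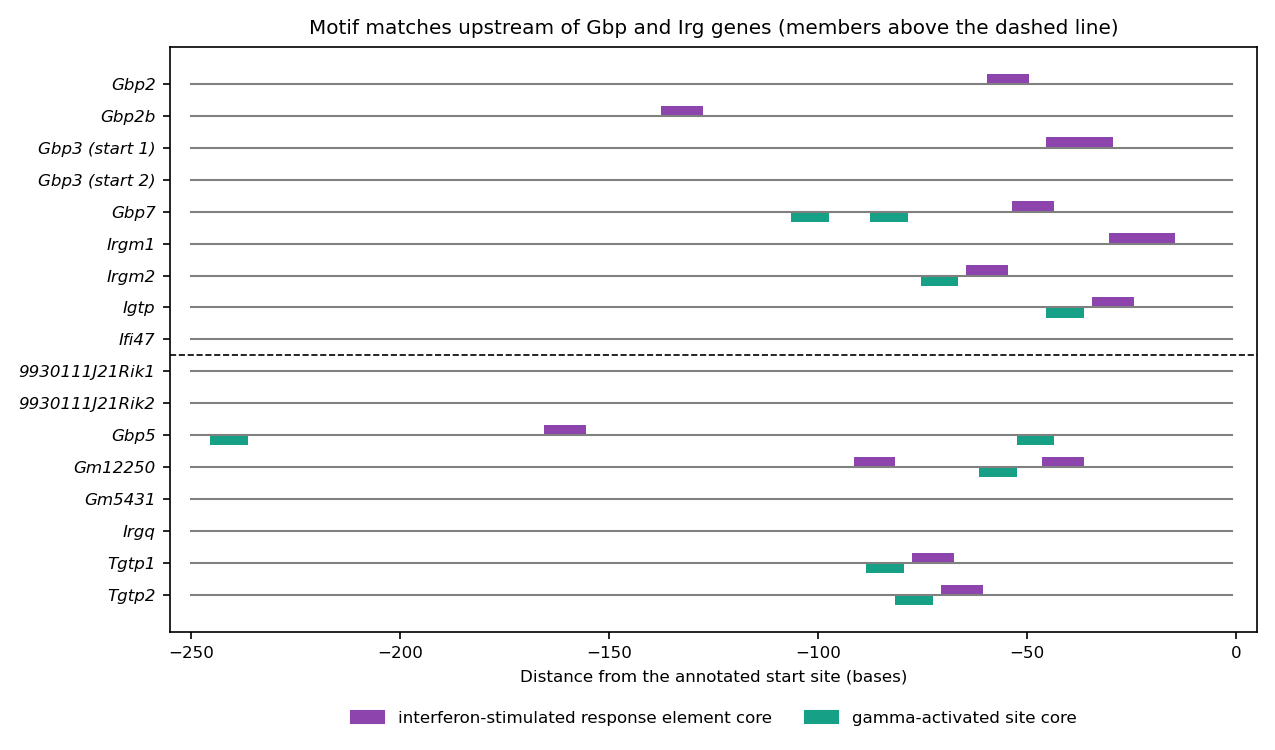
Positions of motif matches in the 250 bases before the annotated start (horizontal axis, bases) for members (above the dashed line) and for other Gbp and Irg genes (below it). Purple bars mark the response element core, present in 7 of 8 members, and green bars the gamma-activated site core, present in 3 of 8.

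The constructs and the targeted gene were read first, as a check of the labels. Depth, estimated from the value of 1 read, was 15.53 to 20.97 (in units of 1000000 reads) over the Neuro2a libraries and 15.54 to 20.10 over the mouse libraries. Levels are in CPM, read counts scaled to 1000000 per library, and n is 3 in each combination of group and library set. Scn2a was at 4.09 to 5.34 CPM in CRISPRa libraries, against 2.84 to 3.46 CPM in VP64 only libraries, and at 257.7 to 291.3 CPM in Het CRISPRa nuclei, 203.3 to 260.3 CPM in Het nuclei and 229.5 to 266.0 CPM in WT nuclei. sadCas9-VP64 RNA was at 1683 to 2154 CPM in CRISPRa set 7 and 563.6 to 631.8 CPM in CRISPRa set 8, against 2497 to 2646 CPM in VP64 only set 7 and 318.0 to 369.8 CPM in VP64 only set 8. The mCherry-puromycin marker was at 4626 to 5782 CPM in CRISPRa set 7 and 1574 to 1927 CPM in CRISPRa set 8, against 0 in VP64 only libraries. The 2 library sets thus differed in construct level in both groups, and CRISPRa set 8 had less sadCas9-VP64 RNA than VP64 only set 7. The 8 markers of sympathetic neuroblastoma cells summed to 643.8 to 909.4 CPM in the Neuro2a libraries, and the 9 neuronal markers to 2855 to 3307 CPM in the nuclei.

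All 10 members were higher in CRISPRa than in VP64 only libraries within each library set, with no overlap between the groups. In all genes tested, 34.6% were higher without overlap in set 7 and 21.9% in set 8. Over both sets, 7 of the 10 did not overlap (5.74% of all genes were higher without overlap). The members' median difference was 1.92 on the log2(CPM + 0.5) scale, against 0.06 over the 14398 genes tested. Because this contrast chose the members, nothing is read from these counts.

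Of the 10 members, the effector Irg gene Ifi47 had the largest ratio of means between the groups in set 7 and Iigp1 the largest in set 8. Iigp1 had 194.2, 148.6 and 185.1 CPM in CRISPRa set 7 and 17.6, 26.7 and 27.5 CPM in CRISPRa set 8, against 33.7, 23.2 and 45.6 CPM in VP64 only set 7 and 0.954, 0.836 and 0.822 CPM in VP64 only set 8. Each set kept its groups apart, yet the CRISPRa libraries of set 8 overlapped the VP64 only libraries of set 7. The ratio of means was 5.15 in set 7 and 27.5 in set 8, and the log2 difference over both sets was 3.26 ± 1.06 (SE). The ratio in set 8 rests on 47 estimated reads in VP64 only libraries. Iigp1 was the member whose levels differed most between the sets, in CRISPRa and in VP64 only libraries.

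Ifi47 had 35.4, 25.4 and 29.7 CPM in CRISPRa set 7 and 4.09, 5.86 and 8.51 CPM in CRISPRa set 8, against 3.81, 2.46 and 4.05 CPM in VP64 only set 7 and 0.239, 0.120 and 0.569 CPM in VP64 only set 8. The groups did not overlap, though the lowest CRISPRa library of set 8 was close to the highest VP64 only library of set 7. Its ratio of means was 8.77 in set 7 and 19.9 in set 8, but the second rests on 16 estimated reads in VP64 only libraries. On the log2(CPM + 0.5) scale, which compresses such low values, its difference was 2.97 ± 0.24 in set 7 and 3.02 ± 0.24 in set 8 (SE).

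The 3 regulatory Irg genes had the smallest ratios of the 10 in both sets. Irgm2, which restrains caspase-11 responses in mouse cells, had 493.3, 436.2 and 445.4 CPM in CRISPRa set 7 and 349.9, 390.3 and 398.0 CPM in CRISPRa set 8, against 322.1, 304.8 and 326.9 CPM in VP64 only set 7 and 216.8, 198.4 and 196.5 CPM in VP64 only set 8. Every CRISPRa library was above every VP64 only library, and the ratio of means was 1.44 in set 7 and 1.86 in set 8. Irgm1, needed in mice for the control of mycobacteria and for the upkeep of lysosomes and mitochondria, had 286.3, 255.3 and 270.7 CPM in CRISPRa set 7 and 195.7, 203.7 and 199.3 CPM in CRISPRa set 8, against 136.7, 128.6 and 157.1 CPM in VP64 only set 7 and 99.7, 96.8 and 89.6 CPM in VP64 only set 8. Here too the groups did not overlap, at ratios of 1.92 and 2.09. Igtp had 242.6, 211.7 and 210.9 CPM in CRISPRa set 7 and 111.5, 129.5 and 132.7 CPM in CRISPRa set 8, against 110.6, 107.2 and 122.0 CPM in VP64 only set 7 and 48.8, 47.1 and 47.1 CPM in VP64 only set 8. The Igtp ratios were 1.96 and 2.61, and CRISPRa set 8 overlapped VP64 only set 7. Igtp and Irgm2 overlap on the same strand in GENCODE M21, by 8.01% and 4.39% of their exon bases.

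Among the Gbp genes, the chromosome 3 pair Gbp2 and Gbp2b (murine Gbp1) moved to a like extent. Gbp2, which coats the vacuoles of Toxoplasma, had 33.7, 30.9 and 37.7 CPM in CRISPRa set 7 and 8.18, 10.6 and 9.79 CPM in CRISPRa set 8, against 4.80, 4.81 and 5.51 CPM in VP64 only set 7 and 1.91, 1.02 and 1.07 CPM in VP64 only set 8. Its groups did not overlap and its ratios of means were 6.77 and 7.14. Gbp2b averaged 33.7 ± 5.13 CPM in CRISPRa set 7 and 10.0 ± 1.61 CPM in CRISPRa set 8, against 5.83 ± 0.904 CPM in VP64 only set 7 and 1.71 ± 0.536 CPM in VP64 only set 8 (SD). The Gbp2b ratios were 5.78 and 5.86, so that for this pair the ratio barely differed between sets while the level differed more than 3-fold.

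Gbp3, Gbp7 and Gbp9 had a larger ratio of means in set 8, as every member did, though by little in some. Gbp3 had 309.7, 300.4 and 318.6 CPM in CRISPRa set 7 and 135.7, 152.3 and 161.2 CPM in CRISPRa set 8, against 149.6, 132.7 and 167.3 CPM in VP64 only set 7 and 39.1, 38.2 and 35.8 CPM in VP64 only set 8. Its CRISPRa set 8 and VP64 only set 7 means, 149.7 ± 12.9 and 149.9 ± 17.3 CPM, did not differ beyond their spread. Gbp7, which in mice binds parts of the phagocyte oxidase and autophagy proteins, averaged 140.9 ± 17.1 CPM in CRISPRa set 7 and 81.3 ± 6.17 CPM in CRISPRa set 8, against 62.0 ± 5.90 CPM in VP64 only set 7 and 23.5 ± 2.14 CPM in VP64 only set 8. Gbp9, which lies apart from the others on chromosome 5, averaged 35.9 ± 1.68 CPM in CRISPRa set 7 and 14.2 ± 3.23 CPM in CRISPRa set 8, against 9.14 ± 1.61 CPM in VP64 only set 7 and 1.75 ± 0.641 CPM in VP64 only set 8. In Gbp7 and Gbp9 all CRISPRa libraries exceeded all VP64 only libraries. The log2 difference was larger in set 8 than in set 7 by 0.92 ± 0.10 for Gbp3, 0.60 ± 0.12 for Gbp7 and 0.80 ± 0.27 for Gbp9 (SE), against 1.74 ± 0.25 for Iigp1 and -0.17 ± 0.23 for Gbp2. For the remaining members it was 0.41 ± 0.09 (Igtp), 0.37 ± 0.08 (Irgm2), 0.12 ± 0.09 (Irgm1), 0.05 ± 0.33 (Ifi47) and -0.16 ± 0.24 (Gbp2b).

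**Figure D2:**
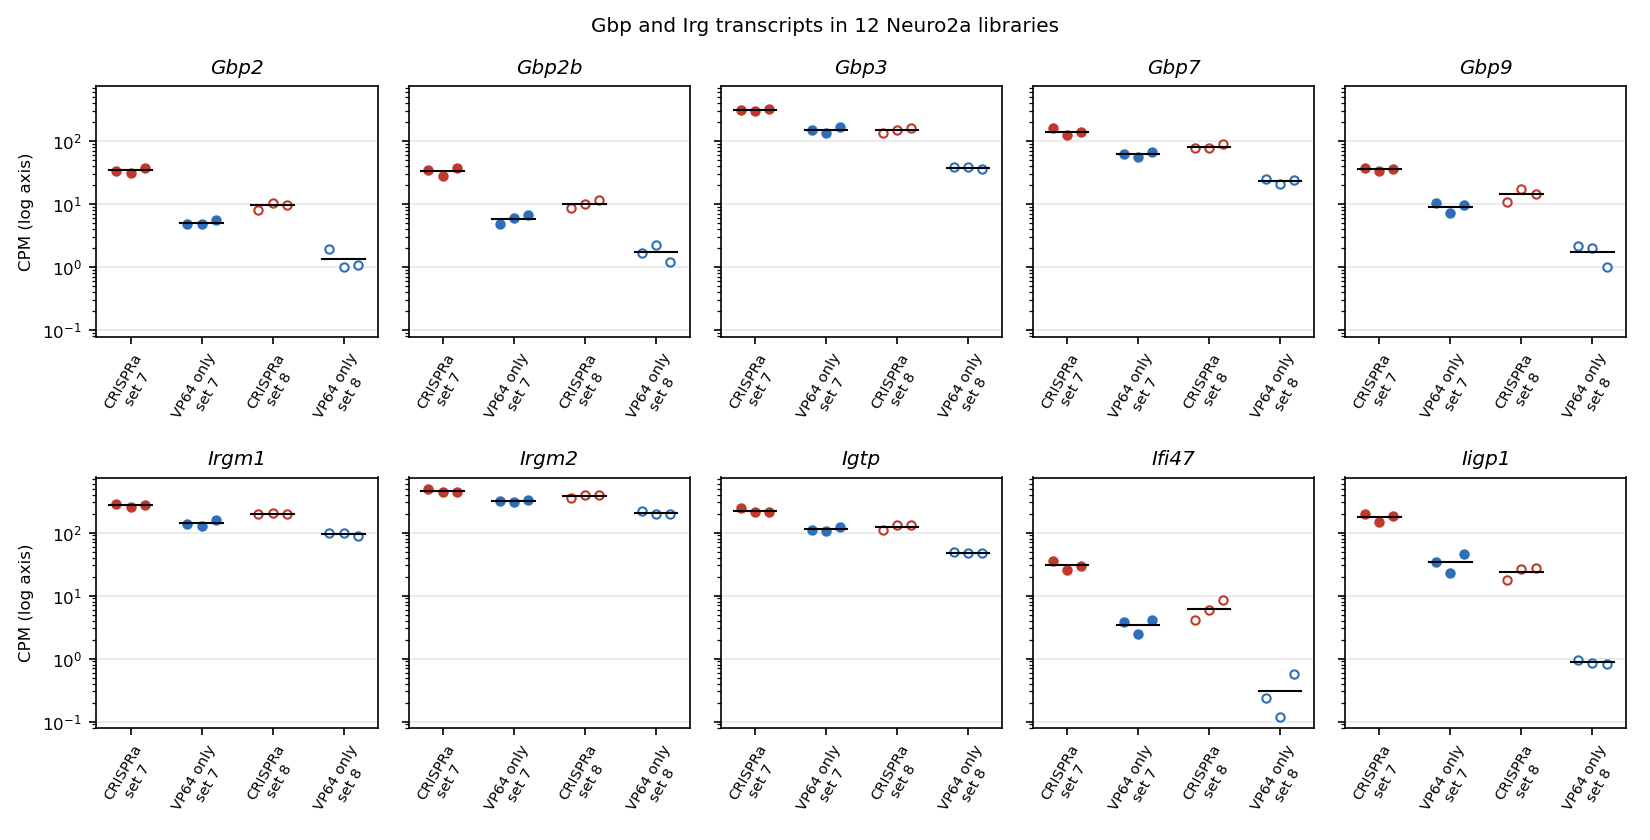
CPM of each member (log axis, shared by all panels) in the 12 Neuro2a libraries, with points for libraries, filled for set 7 and open for set 8, red for CRISPRa and blue for VP64 only, and a line at the mean of 3 libraries. CRISPRa set 7 was highest and VP64 only set 8 lowest for all 10 members, and the middle 2 overlapped for Gbp3, Igtp and Iigp1.

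The library sets also separated the members. All 10 were lower in set 8 than in set 7, without overlap, in CRISPRa and in VP64 only libraries. Of all genes tested, 36.3% were lower without overlap in CRISPRa libraries and 30.3% in VP64 only libraries. The median log2 difference of the members between set 8 and set 7 was -1.19 in CRISPRa and -1.58 in VP64 only libraries. The difference in VP64 only libraries ranged from -0.56 ± 0.06 for Irgm1 to -4.61 ± 0.18 for Iigp1 (SE). sadCas9-VP64 RNA was also lower in set 8 in both groups, and its part in the result was not tested.

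Across the 4 combinations of group and library set the order of levels was the same, without overlap, for 7 members, Gbp2, Gbp2b, Gbp7, Gbp9, Irgm1, Irgm2 and Ifi47. For these, CRISPRa set 8 lay above VP64 only set 7 without overlap, as 27.2% of all genes did. Igtp had the same order of means, at a ratio of 1.1 for CRISPRa set 8 over VP64 only set 7, but with overlap. In the 7 without overlap this ratio was 1.19 for Irgm2, 1.31 for Gbp7, 1.42 for Irgm1, 1.55 for Gbp9, 1.72 for Gbp2b, 1.79 for Ifi47 and 1.89 for Gbp2. For Iigp1 the ratio was 0.701, the only one of the 10 well under 1.

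Levels between genes were compared per kilobase of exon, with the length taken as all annotated exons of a gene joined, from GENCODE M21. A gene whose expressed transcripts are shorter than that length is placed too low, so the order depends on this choice. In CRISPRa set 7 the order of means was Irgm2 at 124.2 CPM per kb, Igtp at 109.7, Gbp3 at 94.8, Irgm1 at 46.6, Iigp1 at 30.2, Gbp7 at 25.1, Gbp2 at 13.55, Ifi47 at 12.2, Gbp2b at 11.95 and Gbp9 at 6.94 CPM per kb. In CRISPRa set 8 it was Irgm2 at 102.8, Igtp at 61.6, Gbp3 at 45.9, Irgm1 at 34.35, Gbp7 at 14.5, Iigp1 at 4.11, Gbp2 at 3.78, Gbp2b at 3.56, Gbp9 at 2.74 and Ifi47 at 2.49 CPM per kb. Iigp1 thus stood above Gbp7 in the first and below it in the second. In VP64 only set 7 Irgm2 at 86.2 CPM per kb led and Ifi47 at 1.39 was last, with Iigp1 at 5.87 in the sixth place after Gbp7 at 11.05. In VP64 only set 8 Irgm2 at 55.3 CPM per kb led, and Iigp1 at 0.1495 and Ifi47 at 0.125 were the last 2, below Gbp9 at 0.337. Irgm2, Igtp, Gbp3 and Irgm1 were the highest 4 in all 4 combinations.

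Genes of both families outside the 10 were taken from a list of 25 symbols, of which 18 rows were present, 9 were tested and 8 rose in CRISPRa libraries, past an adjusted p of 0.05 in a limma fit in which 10.0% of 14398 genes were called higher. These tests and those of the lists below share their libraries with the contrast that chose the members. Tgtp2 and its near copy Tgtp1, both effector Irg genes (Irgb6), rose by 3.04 ± 0.69 and 2.72 ± 0.66 on the log2 scale (SE), with adjusted p = 0.0110 and 0.0148 in limma. Tgtp2 was at 88.8 to 102.9 CPM in CRISPRa set 7 and 23.6 to 36.6 CPM in CRISPRa set 8, against 12.9 to 26.4 CPM in VP64 only set 7 and 1.49 to 2.30 CPM in VP64 only set 8. The other rises were 2.64 ± 0.57 for 9930111J21Rik2, 1.91 ± 0.41 for Gbp5, 1.90 ± 0.30 for Gbp4, 1.82 ± 0.41 for Gbp6, 1.81 ± 0.55 for Gm12250 (Irgb10, ENSMUSG00000134402) and 1.74 ± 0.42 for Gbp10, with adjusted p between 0.00133 and 0.0407. Like the members, all 8 had a higher mean in set 7 than in set 8 in both groups.

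Several of these other genes are less certain than the members. Of the stretches of 100 bases in their exons, 76.8% of Tgtp2 and 73.2% of Tgtp1 are shared, mostly with each other, as are 73.5% of Gbp10 and 64.5% of Gbp6 with Gm43302 and 48.3% of 9930111J21Rik2 with 9930111J21Rik1, so reads could be split between copies. The same share was 10.0% or less for each member. Gm12250 was past the threshold in the fit given but not without the filter (adjusted p = 0.0875), after quantile normalization (0.0601), or when any of CRISPRa replicates 1 to 3 or any VP64 only replicate was left out (0.0518 to 0.0928). For that row of Gm12250 the sharing of stretches was not measured. A second row of the same symbol, at 0 in 7 of 12 Neuro2a libraries, was too low to be tested in the fit given. Irgq, a distant relative, had 17.6 to 22.2 CPM in CRISPRa set 7 and 35.6 to 38.8 CPM in CRISPRa set 8, against 23.66 to 27.95 CPM in VP64 only set 7 and 37.9 to 40.0 CPM in VP64 only set 8. Its difference of -0.22 ± 0.22 was not past the threshold (adjusted p = 0.521), and it was higher in set 8, opposite to the members. With the library set as a covariate Irgq passed as lower (adjusted p = 0.0218). Iigp1c at 3.18 to 3.78 CPM and 9930111J21Rik1 at 1.69 to 2.58 CPM in CRISPRa set 7 reached 0.5 CPM in too few libraries and were not tested, and in VP64 only set 8 Iigp1c was listed at 0.

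**Figure D3:**
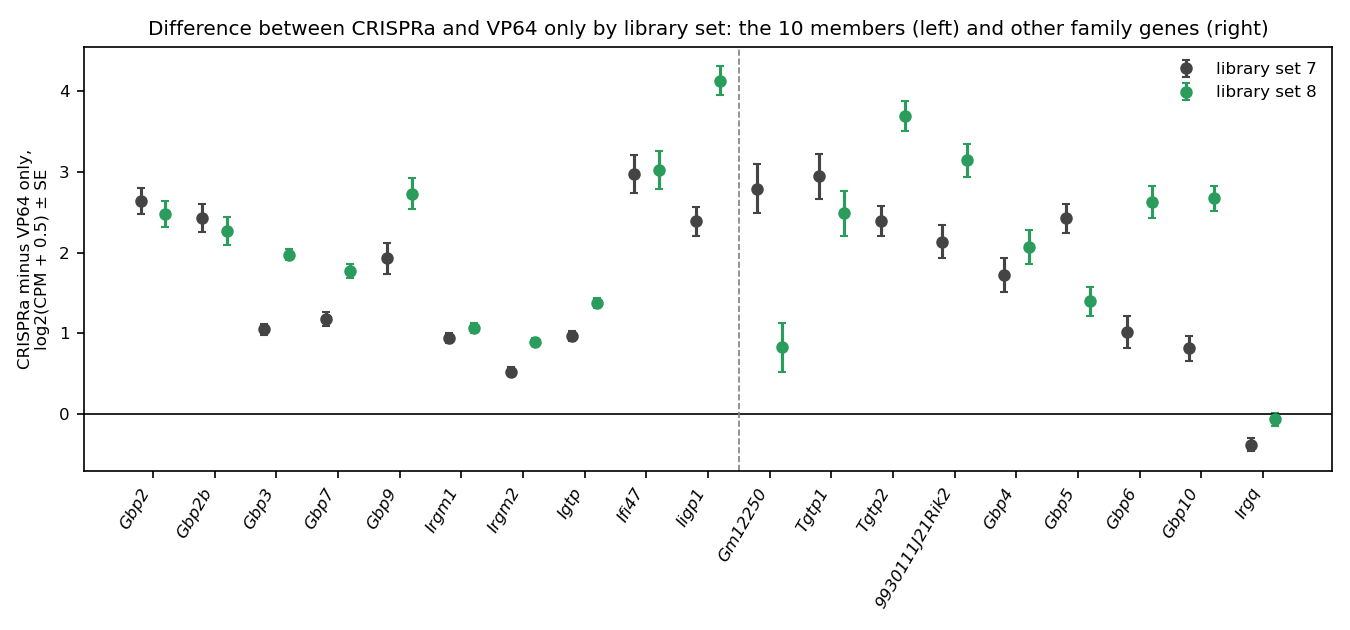
Difference between CRISPRa and VP64 only libraries on the log2(CPM + 0.5) scale (vertical axis, points with SE of the limma fit) in library set 7 (grey) and set 8 (green), for the 10 members left of the dashed line and the 9 other tested family genes right of it. The largest member value was 4.13 for Iigp1 in set 8 and the smallest 0.53 for Irgm2 in set 7, and Irgq lay below 0 in both sets.

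Genes of interferon signalling and its regulation rose in part. Of 20 interferon regulators, 19 were tested and 10 rose in CRISPRa libraries with none falling, against 15.0% of all genes called in either direction. The count was 6 without VP64 only replicate 4 or without VP64 only replicate 6. Their median log2 difference was 0.23. The 4 with the smallest p were Irf1 at 1.02 ± 0.11, Stat3 at 0.37 ± 0.05, Socs1 at 1.06 ± 0.17 and Nlrc5 at 2.24 ± 0.40 (SE), with adjusted p = 0.000140, 0.000906, 0.00135 and 0.00278. Irf1, a factor that binds response elements in Gbp promoters, was at 73.9 to 108.2 CPM in CRISPRa libraries and 38.5 to 49.4 CPM in VP64 only libraries, without overlap. Irf7, picked out after its value was seen, rose by 1.05 ± 0.29 (adjusted p = 0.0257), but was not past the threshold when any of CRISPRa replicates 1 to 3 or VP64 only replicates 4 to 6 was left out (0.0515 to 0.0577) or without the filter (0.0530). The receptor chains Ifnar1, Ifnar2, Ifngr1 and Ifngr2 and the kinases Jak1, Jak2 and Tyk2 had differences between -0.12 and 0.07, none past the threshold. Of 10 interferon genes listed, 1 had a row and none was tested.

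The dynamin-like antiviral GTPases Mx1 and Mx2 both rose, by 2.04 ± 0.46 and 1.85 ± 0.35 (SE), with adjusted p = 0.0101 and 0.00366 in limma. Of 10 atlastins and dynamins, relatives that interferons do not induce, 0 were past the threshold in that fit. It called 15.0% of all genes in either direction. The differences of the 10 ran from -0.11 to 0.28, with 1 at an unadjusted p under 0.05. With the replicate block 1 of the 10 was past the threshold, and more were when either library set was fitted alone. Of 13 genes of Atg8 conjugation and vacuole ubiquitin tagging, which Gbp and Irg recruitment draws on, Trim21 rose by 0.73 ± 0.08 and Sqstm1 by 0.41 ± 0.12, and Atg12 fell by 0.21 on the log2 scale (adjusted p = 0.000153, 0.0371 and 0.0177). Sqstm1 was not past the threshold without the filter, under median-of-ratios scaling, or when any of CRISPRa replicates 4 to 6 or VP64 only replicates 1, 2, 3, 5 and 6 was left out (adjusted p = 0.0564 to 0.105). The list's median was 0.09. Of 4 inflammasome genes tested, 0 passed in limma, 1 had an unadjusted p under 0.05, 1 passed without CRISPRa replicate 4, and 2 passed with the replicate block.

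The 6 genes most like the members over the 12 Neuro2a libraries, by Pearson r with the members' mean standardised level, were Cmpk2 at 0.997, Rigi at 0.996, Tgtp2 at 0.996, Tap1 at 0.995, Mx1 at 0.994 and Ifit3 at 0.993. Each member's own r with that mean was 0.977 to 0.996. The 12 points share the groups and library sets, so these values describe the same steps in level. Microglial markers in Neuro2a, of which 6 of 10 had a row, summed to 125.6 to 139.1 CPM in CRISPRa set 7 and 181.3 to 190.9 CPM in CRISPRa set 8, against 125.3 to 137.0 CPM in VP64 only set 7 and 173.9 to 179.9 CPM in VP64 only set 8, with Cx3cr1 and P2ry12 at 0 in most libraries. That order is opposite to the members' between sets.

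In cortical neuronal nuclei the members were low. Summed over the 9 with a row, they came to 16.5, 7.36 and 7.69 CPM in Het CRISPRa nuclei, 7.88, 8.90 and 8.36 CPM in Het nuclei and 8.65, 10.3 and 8.36 CPM in WT nuclei. Het CRISPRa replicate 1 stood above the other 8 libraries, which lay close together. In sorted bulk nuclei, fewer cells of a type and less RNA per cell cannot be told apart. Of the 9, the 5 with at least 0.5 CPM in at least 3 libraries were tested (Gbp7, Gbp9, Igtp, Iigp1 and Irgm1).

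Irgm1, the highest of them in CPM without regard to length, had 5.11, 3.66 and 3.23 CPM in Het CRISPRa nuclei, 3.50, 3.82 and 4.03 CPM in Het nuclei and 3.76, 3.85 and 4.12 CPM in WT nuclei. Igtp had 3.33, 2.54 and 1.45 CPM in Het CRISPRa nuclei, 2.37, 2.97 and 1.74 CPM in Het nuclei and 2.03, 2.99 and 2.06 CPM in WT nuclei. The 3 groups overlapped for both. Their log2 differences lay between -0.04 and 0.05 in the 3 comparisons, with SE of 0.22 for Irgm1 and 0.30 for Igtp, and without Het CRISPRa replicate 1 those against Het were -0.12 and -0.21.

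Gbp7 had 2.70, 0.413 and 0.948 CPM in Het CRISPRa nuclei, 0.652, 0.545 and 0.597 CPM in Het nuclei and 0.179, 0.203 and 0.772 CPM in WT nuclei. Its difference was 0.56 ± 0.42 for Het CRISPRa minus Het (adjusted p = 0.810 in limma) and 0.93 ± 0.42 for Het CRISPRa minus WT (adjusted p = 1.00, unadjusted p = 0.0462). Without Het CRISPRa replicate 1 these differences were 0.07 and 0.44. Gbp3, too low to be tested, had 1.32, 0 and 0.279 CPM in Het CRISPRa nuclei, 0.0593, 0.182 and 0 CPM in Het nuclei and 0, 0.304 and 0 CPM in WT nuclei. The authors' deposited table gives Gbp3 a log2 fold change of 2.73 ± 1.58 (SE) for Het CRISPRa over Het with an unadjusted p of 0.0839, and the high value is that of 1 library.

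Gbp9 had 2.18, 0.621 and 1.67 CPM in Het CRISPRa nuclei, 0.711, 0.848 and 0.597 CPM in Het nuclei and 1.37, 1.93 and 1.22 CPM in WT nuclei. The 3 Het libraries lay below the 3 WT libraries, as was so for 7.30% of all genes tested. Its difference was -0.71 ± 0.33 for Het minus WT (adjusted p = 0.875 in limma), and the exact two-sided permutation p was 0.1, the smallest that 3 against 3 allows. For Het CRISPRa minus Het it was 0.62 ± 0.33 (adjusted p = 0.810), with overlap, and 0.36 without Het CRISPRa replicate 1. Iigp1 had 1.44, 0.124 and 0.112 CPM in Het CRISPRa nuclei, 0.415, 0.545 and 1.39 CPM in Het nuclei and 1.19, 1.06 and 0.129 CPM in WT nuclei. Each group held libraries more than 3-fold apart, and the differences of -0.43 ± 0.51 against Het and -0.39 ± 0.51 against WT were not past the threshold, nor were the values of -0.98 and -0.94 without Het CRISPRa replicate 1.

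None of the 5 members passed in limma in any of the 3 comparisons, in which 0.0422% (Het CRISPRa minus Het), 0% (Het minus WT, with 951 genes at an unadjusted p under 0.05) and 0.00527% (Het CRISPRa minus WT) of 18967 genes were called. Without adjustment, 0, 0 and 1 of the 5 had p under 0.05 in limma, beside 996, 951 and 335 of the 18967 genes in the same order. Exact permutation p-values of the 5 members in the 3 comparisons were 0.1 to 1.0. Irgm2 totalled 6 estimated reads in Het CRISPRa, 3 in Het and 2 in WT nuclei, Ifi47 2 in Het CRISPRa and 0 in Het and in WT nuclei, and Gbp2 0, 0 and 1. A count of 0 allows up to 3 reads, 0.149 to 0.193 CPM in these libraries, for counting error only.

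Het CRISPRa replicate 1 had the highest value among the 9 libraries for 8 of the 9 members, all but Gbp2. How many of all genes were highest in that library was not counted. The lead was small for Iigp1, at 1.44 CPM against 1.39 CPM in Het replicate 3. It was also small for Igtp, at 3.33 CPM against 2.99 CPM in WT replicate 2. The values of Ifi47 and Irgm2 there rested on 2 and 6 estimated reads. The interferon-induced Mx1 and Mx2 summed to 7.24 CPM in Het CRISPRa replicate 1 and 0.771 to 2.18 CPM in the other 8 libraries. Irf7 was at 4.48 CPM there, 0.930 and 0.948 CPM in the other Het CRISPRa libraries, 0.424 to 1.09 CPM in Het and 0.772 to 1.27 CPM in WT libraries. The list of 20 interferon regulators, from which Irf7 was picked out, summed to 861.7 CPM there and 812.6 to 901.1 CPM over all 9 libraries. As a sum that list did not stand apart. Het CRISPRa replicate 1 also had the most sadCas9-VP64 RNA, 7.12 CPM against 4.09 and 4.40 CPM in the other Het CRISPRa libraries, while Het and WT libraries were listed at 0. Microglial markers summed to 40.4 CPM in it and 31.6 to 53.5 CPM over all 9 libraries, and endothelial markers to 18.1 CPM in it and 15.1 to 20.4 CPM over all 9, so neither list stood apart there. The part of the construct level in this library's values was not tested.

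**Figure D4:**
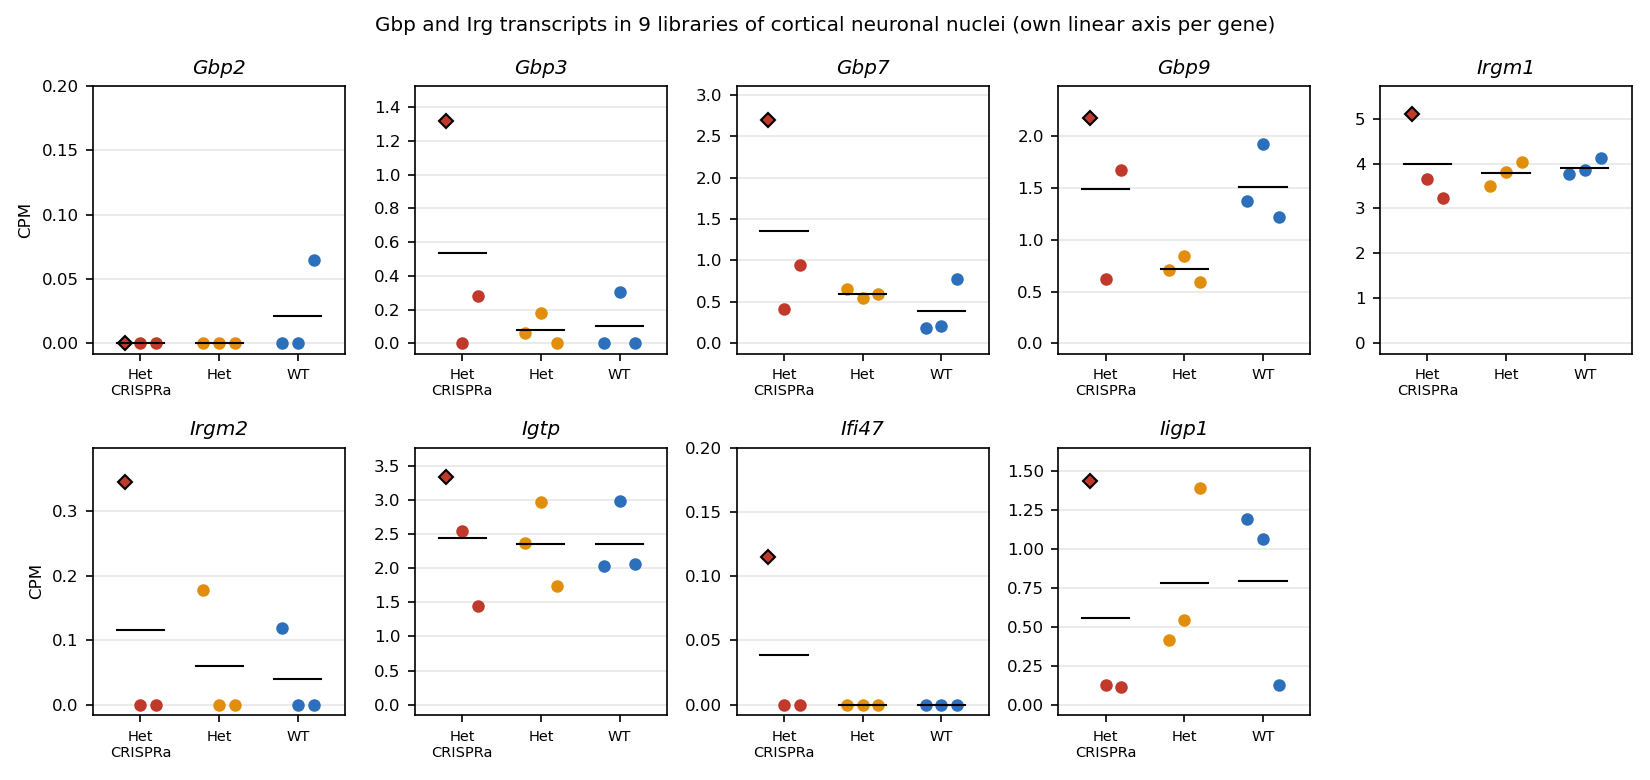
CPM of the 9 members measured in the nuclei (linear axis of its own per gene), with points for libraries in Het CRISPRa, Het and WT mice, a line at the mean of 3, and a black-edged diamond for Het CRISPRa replicate 1. That library is the highest in 8 of 9 panels, by little for Iigp1 and Igtp, and for Gbp9 the 3 Het libraries lie below the 3 WT libraries.

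The order of levels in the nuclei, per kilobase of exon and over 9 libraries, was Igtp at 1.18 CPM per kb, Irgm1 at 0.671, Gbp9 at 0.240, Gbp7 at 0.139, Iigp1 at 0.122, Gbp3 at 0.0730, Irgm2 at 0.0193, Ifi47 at 0.00516 and Gbp2 at 0.00284 CPM per kb. Irgm2 and Gbp3, among the 3 highest in CRISPRa libraries, were among the lowest in the nuclei, where Irgm2 was at 0 in 6 of 9 libraries. The 2 tables were normalised separately and come from whole cells and from nuclei, so the levels are set side by side without a test.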

How the data were processed

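Builds mm39 and GRCm39 and the tools STAR (2.7.8a), featureCounts, DESeq2 (1.44) and R (4.4) are listed, with no roles, per the submitters' processing notes. Strandedness, handling of multi-mapping reads and annotation release are not given in the sources used here. Levels are CPM as deposited by the authors, and per the file headers their comparison tables hold a log2 fold change, a p-value with its adjusted p-value, a base mean signal and a test statistic (score). Of CPM above 0, 70.8 to 73.1% (Neuro2a) and 79.8 to 82.4% (mice) lay within 0.01 of a whole read, so no test on counts was run.

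The members, gene lists and tests were chosen with earlier results of these data known. log2(CPM + 0.5) was fitted with limma 3.58.1 (lmFit, eBayes with trend, R 4.3.3) over genes that reached 0.5 CPM in 6 or more Neuro2a or 3 or more mouse libraries (14398 and 18967), with Benjamini-Hochberg adjustment and 0.05 as the threshold. The SE is that of the fit and the SD is between libraries. All members are named, as are other family genes with a mean of at least 0.5 CPM in Neuro2a, up to 4 genes per list by p, and the 6 genes most like the members. Exact permutation tests used scipy 1.17.1. Simulated data were used to check the fit, but held no difference between library sets, so that check does not cover such a difference. After group means were removed, same-numbered Neuro2a libraries correlated at 0.305 to 0.499 across genes and were paired in an alternative, but within a library set at -0.0708 to 0.0229, so the shared part follows the set. Floors of 3 reads were 0.143 to 0.193 CPM in Neuro2a.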

Additional observations from a re-analysis of the deposited data

How the results depend on the processing

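None of the 5 members tested in the nuclei was past the threshold under any alternative run (pseudocount, filter, scaling, quantile normalization, replicate block, the 2 groups alone, each library left out). No called value changed direction. The number of all genes called in Neuro2a, 2166, became 4513 under the replicate block, 5685 once library set entered the model, 6684 for set 7 only and 3490 for set 8 only. For the lists outside the families, recomputed after the data had been seen, the interferon regulators past the threshold (10) numbered 6 to 10 with 1 library left out. The atlastins and dynamins (0) numbered 1 with the replicate block or the library set, 5 in set 7 and 3 in set 8. The Atg8 genes (3) numbered 5 with the library set or in set 8, and the inflammasome genes (0) numbered 2 with the block, the library set or in set 7, 1 without the filter or in set 8, and 0 to 1 with 1 library left out. Beyond these counts, the replicate block changed no call of a gene outside the members named in the Neuro2a comparison. The members' median difference between sets in VP64 only libraries, -1.58, was -1.82 with a pseudocount of 0.1 and -1.38 with 1. In the nuclei, same-numbered libraries of different groups correlated at -0.11 to 0.42 and differently numbered ones at -0.43 to 0.24. The highest values were those of Het with WT at replicate 3 (0.42) and at replicate 1 (0.34), so the number paired the libraries at most in part. The 8 genes called for Het CRISPRa minus Het became 2 without the filter, 31 with the replicate block, 5 with the 2 groups alone and 0 (without Het replicate 2) to 38 (without Het replicate 3) with 1 library left out. For Het minus WT, 0 genes became 2 with the block and 0 to 1 (without Het replicate 1) with 1 library left out. For Het CRISPRa minus WT, 1 gene became 0 with a pseudocount of 0.1, 0 with the block and 0 to 3 (without Het replicate 3) with 1 library left out. The cause was not tested. Depth limits the nuclei, where Gbp2, Ifi47, Irgm2 and Gbp3 had 1, 2, 11 and 38 estimated reads over 9 libraries.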
